A study of Rattus norvegicus with 8 samples.

Results

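Serotonin receptors were followed across 8 libraries of rat orbitofrontal cortex messenger RNA. The receptor genes were taken by symbol from the protein-coding genes of the deposited count table (Htr1a, Htr1b, Htr1d, Htr1f, Htr2a, Htr2c, Htr3a, Htr4, Htr5a and Htr7), and all 10 were found among its 34298 genes. Male Sprague-Dawley rats, 8 weeks old on arrival and described as adult, received 1 µl of JetPEI transfection reagent holding 5 ng of siRNA in the orbitofrontal cortex, and the tissue was taken 7 days later. Scrambled control siRNA was given to 4 animals (scrambled replicates 1, 3, 4 and 5). In the other 4 it targeted circNrxn3, a circular RNA of the neurexin 3 gene, across its backsplice junction (replicates 1 to 4, called knockdown after their label). All animals were outbred males with no genetic modification named in the labels, the siRNA reached whatever cells took up the reagent, and an untreated group is not analysed here. The strands of the circNrxn3 siRNA define the second group and are printed 5′ to 3′, with the seed of the antisense strand (bases 2 to 8) in capitals.
Sense strand: uccaaaggcuagacaggaauu
Antisense strand: uUCCUGUCuagccuuuggauu

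Serotonin is released in the cortex by axons of neurons whose cell bodies lie in the raphe nuclei of the brainstem. Its synthesis genes are therefore expected mainly in the brainstem, and receptors also in the cortex. Most of the receptors are G protein-coupled. The Htr1 and Htr5 receptors act through Gi/o proteins and dampen excitability, the Htr2 receptors act through Gq and phospholipase C, and Htr4, Htr6 and Htr7 raise cyclic AMP through Gs. Htr3a is the exception, since it encodes a subunit of a cation channel opened directly by serotonin.

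Total counts ran from 27589883 to 35221782 per library. Markers of neurons were abundant in both groups, with summed levels between 6302 and 6951 CPM (reads relative to library size, scaled with TMM factors) over all 8 libraries, and markers of striatal projection neurons, from a region next to the cortex, summed to 438 to 596 CPM. Of 10 markers of the choroid plexus, an epithelium rich in Htr2c, 8 were under 1 CPM in every library, and its defining gene Ttr had 5 reads in all, while Kcne2 was at 2.48 to 3.93 CPM and Aqp1 at 0.221 to 2.70 CPM. Reads of the host gene Nrxn3 numbered 114 to 344 in scrambled and 82 to 430 in knockdown libraries, which does not measure the circle, because poly-T selection retains mainly linear mRNA. In whole tissue, fewer cells of a type and less RNA per cell cannot be told apart.

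Among the 10 receptors, Htr2a was the most abundant when levels were divided by gene model length. Htr2c and Htr3a followed, then Htr5a and the Htr1 receptors, with Htr4 and Htr7 lowest. Mean levels over the 8 libraries were 8.20 ± 1.60 CPM per kb for Htr2a, 3.86 ± 1.02 for Htr2c and 3.72 ± 1.19 for Htr3a (SD, n = 8). They were 1.00 ± 0.67 CPM per kb for Htr5a, 0.672 ± 0.278 for Htr1b and 0.461 ± 0.379 for Htr1a, and 0.440 ± 0.237 for Htr1d and 0.342 ± 0.262 for Htr1f. Htr2a lay above Htr2c in 8 of 8 libraries, by 1.11 ± 0.29 on the log2 scale of CPM per kb + 0.01 (exact paired sign-flip permutation test, 2-sided, p = 0.00781, adjusted p = 0.0234 over 9 neighbour pairs). That p is the smallest 8 libraries can give. Htr3a lay above Htr5a in 8 of 8 libraries by 2.12 ± 1.11, and Htr1f lay above Htr4 in 8 of 8, each with an exact permutation adjusted p of 0.0234. The size of the latter step depends on the pseudocount (4.30 ± 1.55, and 0.39 with a pseudocount of 1), because Htr4 was at 0 in 6 libraries. From the summed reads, 123 of Htr1f and 3 of Htr4, the ratio per length was 41.5 (exact 95% interval 13.9 to 203.8, counting error only). Htr1b lay above Htr1a in 7 of 8 libraries (difference 0.92 ± 0.91, exact permutation adjusted p = 0.0352), and this call was lost with a pseudocount of 1 (adjusted p = 0.0527) and without any 1 library other than knockdown replicate 1 (adjusted p = 0.0703, where 7 libraries cannot give an exact permutation p under 0.0156). Neighbours that did not differ beyond their spread were Htr2c and Htr3a (0.07 ± 0.64), Htr5a and Htr1b (0.37 ± 1.01), Htr1a and Htr1d (−0.22 ± 1.62) and Htr1d and Htr1f (0.46 ± 0.99), with exact permutation adjusted p of 0.436 to 0.742.

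**Figure D1:**
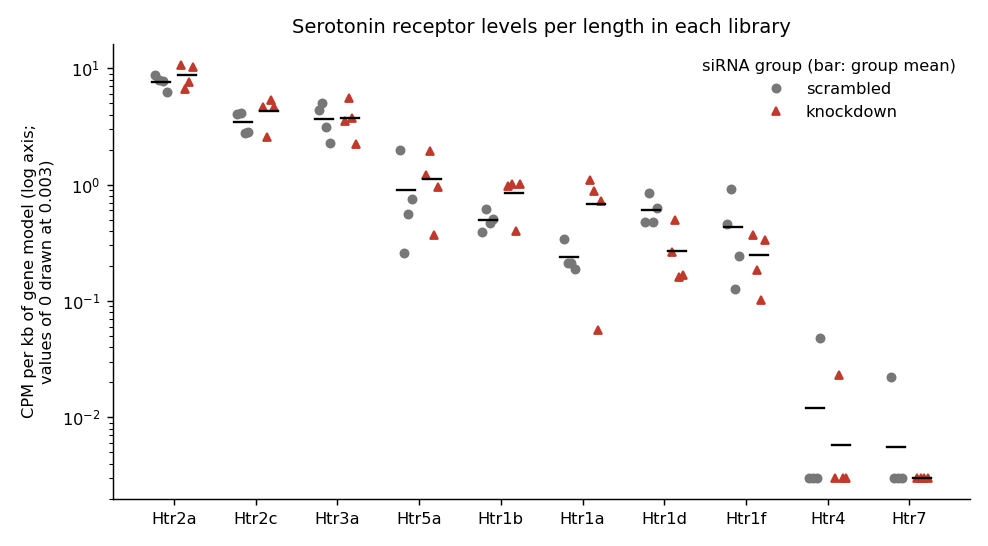
Level of each receptor per library in CPM per kb of the deposited gene model, on a log axis, with scrambled libraries as grey circles, knockdown libraries as red triangles and the group mean as a bar. Htr2a stands highest in every library, Htr2c and Htr3a share a level, and Htr4 and Htr7 are at 0 in most libraries.

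Htr4 and Htr7, both Gs-coupled, were at the floor of detection. Htr4 had 3 reads in all, in 2 of 8 libraries, and Htr7 had 1 read, in scrambled replicate 1. A count of 0 allows up to 3 reads, or 0.0852 to 0.109 CPM in these libraries, counting error alone considered. A value of 0 in this table need not mean a silent gene: Cldn5, a tight junction gene of brain endothelium, had 0 reads in all 8 libraries, while the endothelial receptor gene Flt1 was at 21.8 to 41.9 CPM. The deposited model of Htr7 overlaps that of AC080157.1 on the other strand, for which 0 reads were counted. Htr4 (ENSRNOG00000019134) lies on chromosome 18 from 57654290 to 57819698 and Htr7 (ENSRNOG00000018827) on chromosome 1 from 254549214 to 254671610. Both receptors failed the filter on low counts, so 8 of the 10 genes were tested.

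The gene models bear on these levels. Htr1a (ENSRNOG00000010254, chromosome 2, 36246628 to 36247896, rn6), Htr1b (ENSRNOG00000013042, chromosome 8, 89129453 to 89130991), Htr1d (ENSRNOG00000012038, chromosome 5, 154800226 to 154801350) and Htr1f (ENSRNOG00000000716, chromosome 11, 1982113 to 1983513) are each deposited as a model as long as its genomic span, 1125 to 1539 bp, that is, without an intron. Htr2a (ENSRNOG00000010063, chromosome 15, 56666012 to 56735382) has 4619 bp of exons and Htr2c (ENSRNOG00000030877, chromosome X, 118084890 to 118318039) 4397 bp. Htr3a (ENSRNOG00000006595, chromosome 8, 53211438 to 53223804) has 2002 bp and Htr5a (ENSRNOG00000007066, chromosome 4, 199916 to 209599) 1956 bp. Whether each model covers the untranslated regions was not tested, so the order of levels holds for these models.

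Of the summed level of the 10 receptors, the Gq-coupled ones made up most. Htr6, Gs-coupled and outside the 10, was at 2.75 CPM per kb and is not in these shares. Htr2a and Htr2c together held 63.9 ± 3.59% of the summed CPM per kb of the 10 receptors with the scrambled siRNA and 65.3 ± 12.02% with the circNrxn3 siRNA (SD, n = 4 per group). The Gi/o-coupled receptors held 15.2 ± 2.63% and 15.6 ± 7.17%, and the channel subunit Htr3a 20.7 ± 3.54% and 19.1 ± 7.56%. The means of the 3 classes differed by less than their SD in the knockdown group. Knockdown replicate 2 had the lowest Gq-coupled share (47.7%) and the highest Gi/o-coupled share (23.5%), and knockdown replicate 3 had the lowest Gi/o-coupled share (6.14%). The ratio of Htr2a to Htr2c per kb ran from 1.43 in knockdown replicate 3 to 2.78 in scrambled replicate 4.

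**Figure D2:**
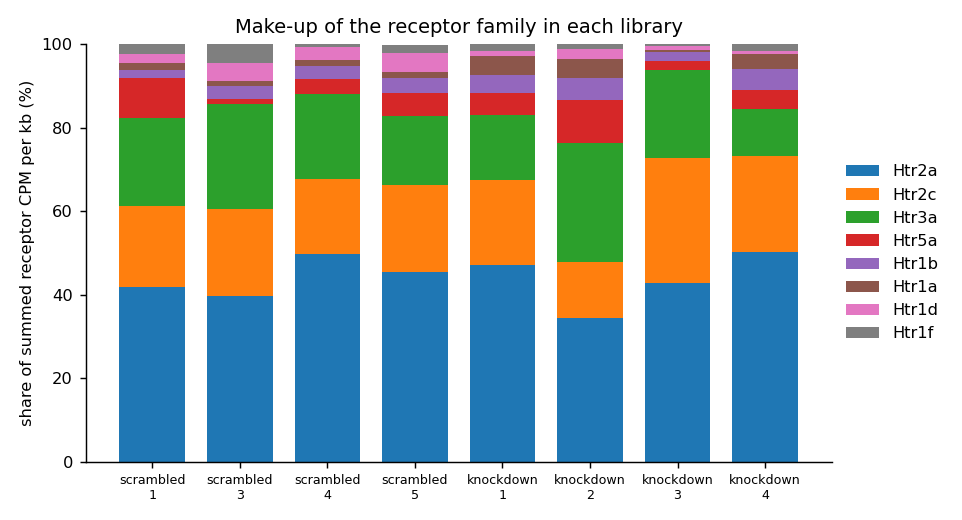
Share of each receptor in the summed CPM per kb of the 10 receptors, without Htr6, in percent, 1 bar per library. Htr4 and Htr7 together reach at most 0.351% and are not drawn. Htr2a fills 34.4 to 50.3% of each bar, and the Gq-coupled part is 47.7% in knockdown replicate 2 and 72.8% in knockdown replicate 3.

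No receptor passed the threshold between the siRNA groups. Of the 8 tested, 0 were called by the edgeR quasi-likelihood test, against 0% of the 16573 genes tested (0 genes). At an unadjusted p under 0.05 there were 2 receptors, Htr1a among the 2.38% of all genes at higher and Htr1d among the 3.2% at lower levels in knockdown libraries (5.59% in both directions). DESeq2 gave no receptor an adjusted p, since its independent filtering kept only 4042 more abundant genes, of which it called 0.445% (18 genes). Without that filtering DESeq2 called 0 receptors (smallest adjusted p = 0.780) and 0.0725% of 16547 genes (12 genes), with 2 receptors at an unadjusted p under 0.05. Limma-voom called 0 receptors and 0 genes, with 1 receptor at an unadjusted p under 0.05. The groups overlapped in every tested receptor, whereas they did not overlap in 3.48% of all genes. The median log2 fold change of the 8 receptors, knockdown over scrambled, was 0.26, with 6 above and 2 below 0, beside a median of 0.01 over all genes tested. That median was 0.12 without knockdown replicate 2, 0.17 without scrambled replicate 5, 0.11 over all 10 receptors without the filter, and −0.05 with a measure of transcript length (described with the relations) as a covariate.

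**Figure D3:**
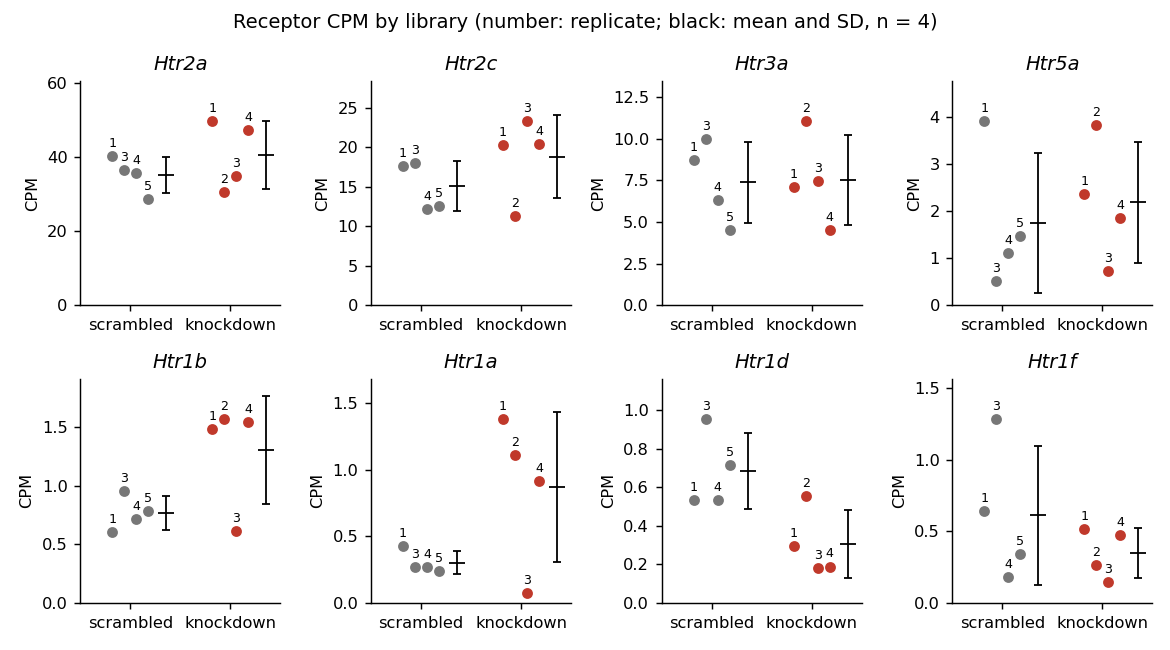
CPM of the 8 tested receptors in each library (grey scrambled, red knockdown), labelled by replicate number, with the mean and SD of each group in black. Htr1a and Htr1b show 3 knockdown libraries above all scrambled ones and knockdown replicate 3 below most of them.

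Htr2a encodes the Gq-coupled receptor on cortical pyramidal neurons through which psychedelic drugs act. Scrambled replicates 1, 3, 4 and 5 measured 40.1, 36.4, 35.6 and 28.6 CPM, and knockdown replicates 1 to 4 measured 49.6, 30.6, 34.9 and 47.2 CPM. Knockdown replicates 1 and 4 lay above every scrambled library and the other 2 fell within the scrambled range. The fitted log2 difference, knockdown minus scrambled, was 0.21 ± 0.16 (SE, edgeR adjusted p = 0.847), and 0.09 without knockdown replicate 1.

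Htr2c encodes the other Gq-coupled receptor of the family tested, whose transcript is a known substrate of adenosine-to-inosine editing. Scrambled replicates 1, 3, 4 and 5 had 17.6, 18.1, 12.2 and 12.5 CPM, and knockdown replicates 1 to 4 had 20.4, 11.3, 23.3 and 20.5 CPM. Here 3 knockdown libraries were above all scrambled ones, and knockdown replicate 2 was below all of them. For Htr2c the log2 fold change was 0.32 ± 0.23 (SE, edgeR adjusted p = 0.834), and 0.50 without knockdown replicate 2. The 6 microRNA genes, among them Mir448 and Mir1298, and the 1 small nucleolar RNA gene that lie within the Htr2c span on its strand had 0 reads.

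Htr3a, the channel subunit, marks a class of cortical interneurons that arise in the caudal ganglionic eminence (CGE). Levels in scrambled replicates 1, 3, 4 and 5 were 8.69, 9.99, 6.32 and 4.52 CPM, and those in knockdown replicates 1 to 4 were 7.11, 11.03, 7.45 and 4.51 CPM. The ranges of the groups nearly coincided, and the log2 fold change of Htr3a was 0.03 ± 0.30 (SE, edgeR adjusted p = 0.991). The 12 markers of CGE-type interneurons, which include Vip, Reln and Cck, summed to 1541 to 1943 CPM with the scrambled and to 1489 to 1536 CPM with the circNrxn3 siRNA. Cck alone made up 67.6 to 78.7% of that sum. The other 11 summed to 407 to 531 CPM and 371 to 488 CPM, with Lamp5 alone at 213 to 343 CPM over all libraries. The ranges of the 11 overlap, as the groups did for each of the 12 markers. Groups did not overlap in 3.48% of all genes tested. Of these markers 9 of 12 had a log2 fold change below 0 (median −0.16), 0 were called, and none was at 0 in all libraries.

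Htr5a, a Gi/o-coupled receptor, varied 7.69-fold between libraries, and its groups overlapped over most of that range. Scrambled replicates 1, 3, 4 and 5 showed 3.90, 0.507, 1.10 and 1.46 CPM, and knockdown replicates 1 to 4 showed 2.35, 3.82, 0.720 and 1.86 CPM. Scrambled replicate 1 and knockdown replicate 2 were the high libraries and the replicates numbered 3 of both groups the low ones. Between the groups Htr5a had a log2 fold change of 0.34 ± 0.63 (SE, edgeR adjusted p = 0.933). Leaving out knockdown replicate 2 gave −0.07, leaving out scrambled replicate 3 gave 0.03, and leaving out scrambled replicate 1 gave 1.10.

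Htr1a, the Gi/o-coupled receptor that opens GIRK potassium channels and serves as autoreceptor on raphe neurons, had the largest fold change of the family and few reads. Scrambled replicates 1, 3, 4 and 5 held 12, 9, 9 and 7 reads of Htr1a, and knockdown replicates 1 to 4 held 51, 34, 2 and 29. These correspond to 0.429, 0.268, 0.268 and 0.238 CPM and to 1.38, 1.11, 0.0720 and 0.914 CPM. Knockdown replicates 1, 2 and 4 were above every scrambled library, and knockdown replicate 3 was below every one of them. Fitted over all 8 libraries, the log2 fold change was 1.53 ± 0.68 (SE, unadjusted p = 0.0488, edgeR adjusted p = 0.833). It was 1.90 without knockdown replicate 3 (edgeR adjusted p = 0.542). With the transcript length measure as a covariate it was 0.59 ± 0.91 (SE, edgeR adjusted p = 0.999). Htr1a passed the filter on low counts mainly through the knockdown libraries.

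Htr1b, which encodes the receptor that restrains release at axon terminals, also had knockdown replicates 1, 2 and 4 as its 3 highest libraries. For Htr1b, scrambled replicates 1, 3, 4 and 5 stood at 0.608, 0.954, 0.715 and 0.782 CPM, and knockdown replicates 1 to 4 stood at 1.49, 1.57, 0.612 and 1.54 CPM. Again 3 knockdown libraries were above all scrambled ones, while knockdown replicate 3 stood next to the lowest scrambled library. This gave a log2 fold change of 0.77 ± 0.38 (SE, edgeR adjusted p = 0.833), and 0.45 with the length covariate.

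Htr1d, a close relative of Htr1b and like it a target of the triptan drugs, was lower in knockdown libraries without passing the test. Scrambled replicates 1, 3, 4 and 5 had 0.537, 0.954, 0.536 and 0.714 CPM (15, 32, 18 and 21 reads), and knockdown replicates 1 to 4 had 0.297, 0.555, 0.180 and 0.189 CPM (11, 17, 5 and 6 reads). Of the knockdown libraries 3 were below every scrambled one and knockdown replicate 2 lay within their range. Its log2 fold change was −1.16 ± 0.50 (SE, unadjusted p = 0.0424, edgeR adjusted p = 0.833). It was −1.76 with the length covariate and −1.60 without knockdown replicate 2. In contrast to Htr1a, the gene passed the filter on low counts mainly through the scrambled libraries.

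Htr1f, the remaining Gi/o-coupled member, was spread widely in both groups. Htr1f in scrambled replicates 1, 3, 4 and 5 reached 0.644, 1.28, 0.179 and 0.340 CPM, and knockdown replicates 1 to 4 reached 0.514, 0.261, 0.144 and 0.473 CPM. Scrambled replicate 3 alone exceeded 1 CPM. For Htr1f the log2 fold change was −0.80 ± 0.66 (SE, edgeR adjusted p = 0.851) and −0.13 without scrambled replicate 3.

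**Figure D4:**
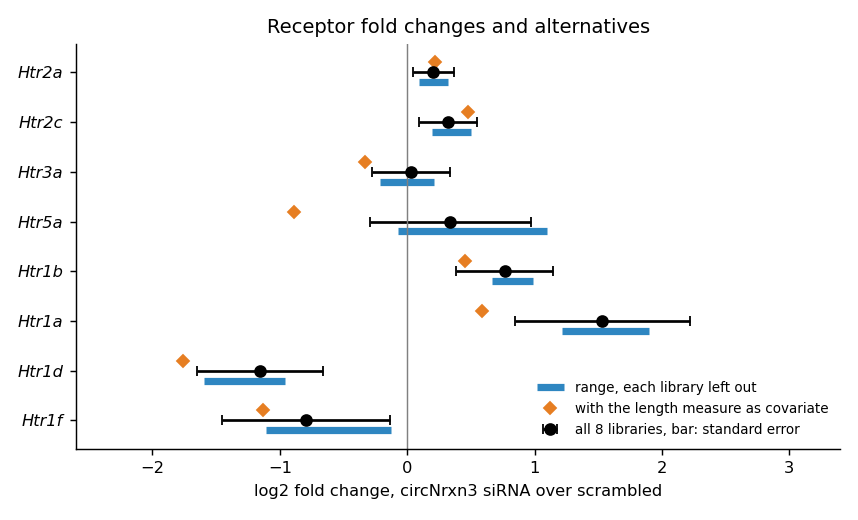
Log2 fold change of each tested receptor, knockdown over scrambled, with its standard error (black), the range when each library is left out (blue) and the value with the transcript length measure as a covariate (orange diamonds). The diamond of Htr5a lies at −0.89, on the other side of 0 from the value of 0.34 without the covariate.

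Every tested receptor varied between libraries by more than counting alone gives. The coefficient of variation of CPM was taken over all 8 libraries, so it includes any difference between the groups. The coefficient was not set against counting within each group. It was 19.5% for Htr2a, 26.4% for Htr2c and 31.9% for Htr3a, where counting alone gives 2.88 to 6.53%. For Htr1b it was 41.4%, where counting gives 17.4%, and for Htr1d 53.8%, where counting gives 25.3%. For Htr5a, Htr1f and Htr1a it was 66.7%, 76.5% and 82.3%, where counting gives 12.8%, 25.5% and 22.9%. The edgeR biological coefficient of variation of Htr5a was 0.615, above the trend of 0.410 for genes of its abundance, and that of Htr1b was 0.360, below its trend of 0.473.

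Libraries also differed in the balance of long and short transcripts, measured as the log2 ratio of summed CPM between genes longer than 3486 bp and genes shorter than 1372 bp, centred on the mean of the 8. Its mean was −0.08 ± 0.10 with the scrambled and 0.08 ± 0.13 with the circNrxn3 siRNA (SD, n = 4 per group). Over the 8 libraries Htr5a correlated with this measure at r = 0.77 and rho = 0.69 (exact permutation p = 0.0270 and 0.0694), and Htr1a at r = 0.73 and rho = 0.69 (exact permutation p = 0.0393 and 0.0694). Neither passed after adjustment over the 14 relations computed (exact permutation adjusted p = 0.183 each for r). Without the 2 libraries farthest from the median, knockdown replicate 2 and scrambled replicate 4, r was 0.76 for Htr5a (exact permutation p = 0.104) and 0.73 for Htr1a (exact permutation p = 0.126). The coefficient for Htr2a was 0.18 over the 8 libraries and 0.88 without those 2 (exact permutation p = 0.672 and 0.0319), so its size rests on which libraries enter. The permutations ignored the siRNA groups, whose means of the measure were −0.08 and 0.08. For Htr1a, with the largest fold change between these groups, the pooled r and the group difference cannot be told apart. A group holds too few libraries for a value within it.

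**Figure D5:**
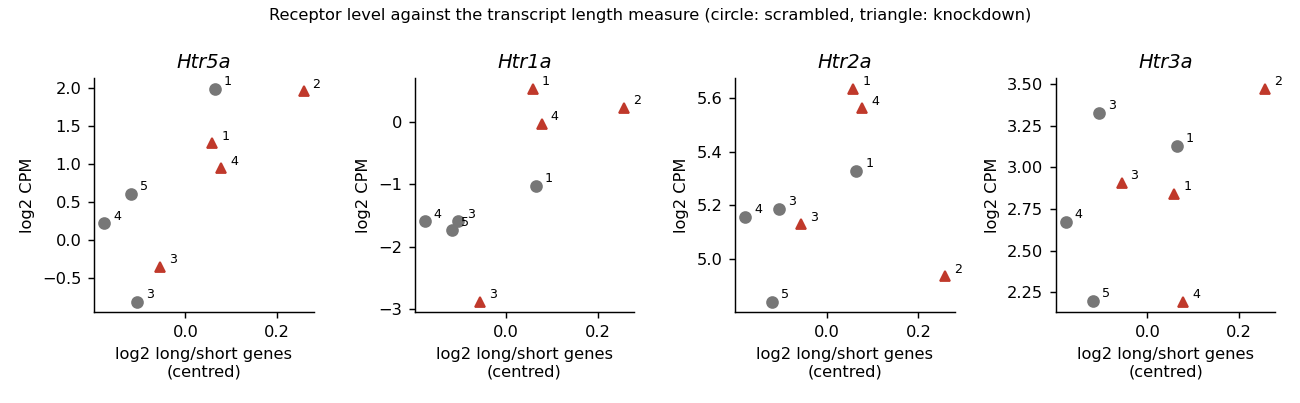
Log2 CPM of Htr5a, Htr1a, Htr2a and Htr3a against the transcript length measure, 1 point per library, labelled by replicate number (circles scrambled, triangles knockdown). Htr5a and Htr1a are lowest among the 4 libraries left of 0, and knockdown replicate 2 stands alone on the right.

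Of the relations with cell type markers, none passed after adjustment (smallest exact permutation adjusted p = 0.183). Htr3a and the CGE-type interneuron score gave r = 0.70 and rho = 0.71 (exact permutation p = 0.0606 and 0.0576), and r = 0.60 without the 2 farthest libraries (exact permutation p = 0.218). Htr2c and the choroid plexus score gave r = 0.71 and rho = 0.76 (exact permutation p = 0.0334 and 0.0368), and r = 0.68 without the 2 farthest (exact permutation p = 0.128). None of the 10 choroid plexus markers was at 0 in all libraries, and their sum, mostly Kcne2 and Aqp1, ran from 4.74 to 5.94 CPM with the scrambled and from 4.05 to 7.27 CPM with the circNrxn3 siRNA. The score is not this sum but the mean of centred log2 CPM with equal weight per marker. It therefore rests largely on the 8 markers that were under 1 CPM in every library. Deep-layer neuron markers gave r of −0.09 for Htr2a, −0.12 for Htr1f, −0.48 for Htr1a and 0.38 for Htr2c (exact permutation p = 0.835, 0.788, 0.229 and 0.345), with rho of 0.05, −0.31, −0.38 and 0.50 (exact permutation p = 0.935, 0.462, 0.360 and 0.216). Without the 2 farthest libraries these r were 0.15, 0.80, −0.36 and 0.41 (exact permutation p = 0.781, 0.0847, 0.650 and 0.565). For Htr1f the sign rests on which libraries enter, since r was −0.76 without scrambled replicate 3 alone (exact permutation p = 0.0244, adjusted p = 0.239) and 0.31 without knockdown replicate 3 alone (exact permutation p = 0.518, adjusted p = 0.906).

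The genes most like the abundant receptors across the 8 libraries, out of 14436 protein-coding genes with a symbol, were sought by Pearson correlation of log2 CPM. For Htr2a they were Kifap3, which encodes a kinesin-associated protein (r = 0.95, rho = 0.93), and Prps2, a phosphoribosyl pyrophosphate synthetase gene (r = 0.94, rho = 0.95). For Htr2c they were Hacl1, a peroxisomal lyase gene (r = 0.95, rho = 0.90), and Dcx, the doublecortin gene of migrating neurons (r = 0.92, rho = 0.86). For Htr3a they were the gene models LOC100912373 (r = 0.98, rho = 0.95) and RGD1310819 (r = 0.96, rho = 0.98). With so many genes searched over 8 libraries, such values describe these libraries only.

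Of the receptors outside the 10, Htr6 alone was tested. For this Gs-coupled receptor, scrambled replicates 1, 3, 4 and 5 had 3.61, 9.07, 4.74 and 5.20 CPM, and knockdown replicates 1 to 4 had 4.19, 5.65, 5.76 and 6.74 CPM. The scrambled range enclosed all knockdown libraries, and the log2 fold change was −0.02 ± 0.28 (SE, edgeR adjusted p = 0.993). At 2.75 ± 0.83 CPM per kb (SD, n = 8) its level lay between those of Htr3a and Htr5a. Htr5b had 42 reads in all, Htr2b 13 and the channel subunit Htr3b 2, and the Htr2b model lies within that of Psmd1 on the other strand, which had 37369 reads.

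Genes of the serotonin pathway, 58 symbols in 6 lists with the receptors just named, held 53 tested genes, and edgeR called 0 of them in either direction, beside 0% of all genes. At an unadjusted p under 0.05 there were 3 of the 53, Gnai2, Gnaz and Dlg4, and these were also the 3 (5.66%) whose groups did not overlap, beside 3.48% of all genes tested. Among the genes for synthesis, transport and breakdown, 2 of 8 tested were above and 6 below 0. Aldh2, an aldehyde dehydrogenase gene, averaged 87.6 ± 9.90 CPM with the scrambled and 74.6 ± 10.34 CPM with the circNrxn3 siRNA (SD, n = 4 per group) and had a log2 fold change of −0.23. Maob, which encodes a monoamine oxidase, had −0.12 and Gch1, the gene of the first enzyme of tetrahydrobiopterin synthesis, −0.74 ± 0.91 (SE). Of 5 markers of raphe serotonin neurons, 4 were under 1 CPM in every library, among them Fev (2 reads) and the serotonin transporter gene Slc6a4 (59 reads). The tryptophan hydroxylase gene Tph2 was at 0.775 to 3.94 CPM. Its mean of 1.99 CPM lay near that of Htr5a (1.97 CPM) and above those of the Htr1 receptors.

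The Gi/o list had 6 of 8 genes above 0 and a median log2 fold change of 0.16. Gnai2, a Gi alpha subunit gene, averaged 445 ± 24.5 CPM with the scrambled and 359.6 ± 26.2 CPM with the circNrxn3 siRNA (SD, n = 4 per group). The log2 fold change of Gnai2 was −0.31 ± 0.08 (SE, edgeR adjusted p = 0.833). DESeq2 called Gnai2 (adjusted p = 0.0265), and not without independent filtering (adjusted p = 0.0679). Gnaz, another Gi-class subunit gene, averaged 68.1 ± 3.87 and 78.7 ± 8.58 CPM in the same order (SD, n = 4 per group), with a log2 fold change of 0.21, and Gnai3 had 0.15.

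The Gq list had 6 of 9 genes above 0 and a median of 0.02, with Plcb4 at 0.14, Plcb1 at 0.24 and Gnaq at −0.22. Plcb1 and Plcb4 encode the phospholipases on which Gq acts. The Gs list had 7 of 11 above 0 and a median of 0.03, with the adenylyl cyclase genes Adcy8 at 0.15 and Adcy5 at 0.10 and the Gs alpha subunit gene Gnas at −0.08. Receptor partners and regulators had 10 of 16 above 0 and a median of 0.04. In that list the log2 fold change was −0.26 for Dlg4, which encodes a postsynaptic scaffold, −0.19 for the arrestin gene Arrb2 and −0.18 for the receptor kinase gene Grk2. All edgeR adjusted p in these lists were between 0.833 and 0.996.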

How the data were processed

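The authors deposited whole-number read counts per gene and FPKM values for the same 34298 genes, 1 column per library. Per the submitters' processing notes, the tools were featureCounts 1.5.0-p3, fastp, StringTie 1.3.3b and HISAT2 2.0.5 and the build was rn6; roles, settings and use of strand in counting are not given in the sources used here. Libraries were poly-T selected and strand-marked, per the labels' protocols. The labels call the libraries of a group biological replicates. No library was a copy of another of its group: pairs within a group differed by more than counting noise (chi-square over its degrees of freedom, 23.2 to 47.4). This says nothing of their origin, and pairs across the groups were not examined in this way.

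Counts were fitted with edgeR 4.0.16 in R 4.3.3: filterByExpr (minimum count 10, 16573 genes kept), TMM factors, robust quasi-likelihood F test, no covariate, 2-sided p adjusted by Benjamini-Hochberg over all genes tested, threshold 0.05. Standard errors are the fold change over the square root of F. Levels per length are TMM-scaled CPM per kb of the deposited gene length. Log2 CPM used a prior count of 2. Of 16 relations planned, those of Htr4 and Htr7 with transcript length were not computed, since each gene had fewer than 10 reads. The procedure was tested on simulated data with changes placed only in genes of a mean of at least 1 CPM. Htr1a, Htr1d and Htr1f lay below that, at 0.585, 0.495 and 0.480 CPM, so the simulation does not cover changes at their level.

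The 10 receptors and the lists were chosen with earlier results of these data known. Named besides the receptors were all other serotonin receptor genes, the 3 tested genes with the smallest p of each pathway list, and the 2 genes most like each of the 3 most abundant receptors; Fev, Slc6a4 and Tph2 (raphe markers), Ttr, Cldn5, Flt1 and Nrxn3 are given as checks. Grk2 was matched through a synonym in the RefSeq gene table (assembly GRCr8). DESeq2 1.42.0, limma 3.58.1 and the other alternatives are compared in the closing section.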

Additional observations from a re-analysis of the deposited data

Results flagged for a closer look

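Within groups of 4, 1 library stood far from the other 3 in 5 of 56 sets of values examined. Chance gives about 5% for normally distributed values, which sets of few reads need not be. Htr1a in scrambled replicate 1 was at 0.429 CPM (12 reads), and the other scrambled libraries were at 0.238 to 0.268 CPM (7 to 9 reads). Htr1b measured 0.612 CPM in knockdown replicate 3, where the remaining knockdown libraries measured 1.49 to 1.57 CPM. Htr2b in knockdown replicate 3 was at 0.108 CPM (3 reads), with 0 reads in the other knockdown libraries. The scaffold gene Dlg4 in knockdown replicate 1 was at 942 CPM against 1143 to 1167 CPM in the other 3. The arrestin gene Arrb2 in scrambled replicate 3 was at 73.4 CPM against 61.5 to 62.8 CPM in the other 3.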

How the results depend on the processing

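Of 172 values of the 8 tested receptors under 22 alternatives, 163 had the direction of the reported value and 9 the opposite one. The 8 from DESeq2 had no adjusted p, and of the other 164, 0 were called (smallest adjusted p = 0.308). The count of genes called was 18 with DESeq2 and 12 with DESeq2 without independent filtering (added after seeing the data). It was 3 without scrambled replicates 3 and 4 and knockdown replicate 3, 0 to 1 with each library left out, and 0 otherwise. Those 3 libraries, chosen after seeing the data, were lowest in mean log2 CPM of long minus short genes. By the ratio of summed CPM used above, scrambled replicate 5 (−0.12) was lower than scrambled replicate 3 (−0.10) and knockdown replicate 3 (−0.06). With the transcript length covariate Htr3a turned to −0.33, Htr5a to −0.89, Htr6 to 0.14, Plcb1 to −0.20, Plcb4 to −0.13 and Gnas to 0.11. Htr6 was 0.00816 with limma-voom, 0.0133 with log2(FPKM + 1), 0.0311 with log2(FPKM + 0.1) and 0.33 without the 3 libraries, where Adcy5 was −0.0268. Gch1 was 0.32 with limma-voom. With each library left out Htr3a ran from −0.22 to 0.21, Htr5a from −0.0708 to 1.10 and Htr6 from −0.18 to 0.30. The cause of these turns was not tested. The median of the tested receptors was 0.12 to 0.34 with each library left out and −0.05 to 0.27 otherwise. It covers all 10 genes without a filter and 4 with a CPM of at least 1 in 4 libraries. In the order of levels, 3 to 4 neighbour pairs passed, and 0 relations passed under any alternative run. The deposited FPKM values understate changes of low genes on the log2(FPKM + 1) scale, where Htr1a had 0.40.

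Replicate numbers 1, 3 and 4 occur in both groups. Deviations of same-numbered libraries from their group means correlated at 0.37, 0.30 and 0.09, and those of the 13 other pairings at −0.44 to 0.28. Numbers 1 and 3 thus gave the highest values, while scrambled replicate 4 correlated best with knockdown replicate 3 (0.22). The labels do not say that a number pairs animals, so the numbers were not taken as pairs. Whether they are pairs was not settled. With the replicate block over those 6 libraries 0 genes were called, as without the block, Htr3a was −0.40 (−0.39 without the block), Htr6 was 0.0205, and Htr5a was 0.14 (−0.15 without the block). The edgeR adjusted p of Gnai2 was 0.0995 with the block and 0.9999 without it. Its standard error fell with the block from 0.098 to 0.049. Among the receptors the standard error fell for Htr1a, Htr2a, Htr2c, Htr3a and Htr5a. It rose for Htr1b, Htr1f and Htr1d, for Htr1d from 0.60 to 0.73. With the block Htr2c had a log2 fold change of 0.44 (edgeR unadjusted p = 0.0112, adjusted p = 0.308). Without the block it had 0.42 (edgeR unadjusted p = 0.0395, adjusted p = 0.9999).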

Other observations

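Knockdown replicate 3 had the lowest level of the 8 libraries for 3 of the 8 tested receptors, Htr1a, Htr1d and Htr1f, and the highest for Htr2c. Knockdown replicate 2 had the highest level of Htr1b and Htr3a and the lowest of Htr2c. Scrambled replicate 4 was neither lowest nor highest for any of the 8. All 7 oligodendrocyte markers had a log2 fold change above 0 (median 0.17, 0 called), with summed levels of 1936 to 4596 CPM in scrambled and 2473 to 4022 CPM in knockdown libraries.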
